A study of Homo sapiens with 12 samples.

Results

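Mitochondrial carriers and import translocases were followed as a group of genes chosen by a rule on gene names: SLC25A followed by a number, TIMM or TOMM followed by a number and, for some, letters. This choice was made with earlier results of these data known. The rule found 72 of the 26334 gene symbols in the count table, namely 48 SLC25 carriers, 14 TIMM genes and 10 TOMM genes. Genes were tested where they averaged 10 or more counts per library across the 12 libraries, and 59 members met that minimum (36 SLC25, 14 TIMM and 9 TOMM). The cells were A673, an established Ewing sarcoma line, labelled shA673-1c and grown in blasticidin and zeocin. All groups, the 0 h controls included, share that line, and what the added part of its name stands for was not given in the sources used here. Cells received 5 µM actinomycin D, a drug that binds DNA and blocks transcription, and RNA was taken at 0, 1, 2 and 4 h in 3 biological replicates per time point. The question was how fast each transcript is lost once new synthesis stops.

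The inner mitochondrial membrane is closed to most metabolites, and the SLC25 family of carriers, each built of repeated pairs of membrane helices, moves nucleotides, phosphate, organic acids, amino acids, cofactors and iron across it. Nearly all mitochondrial proteins, the carriers among them, are made in the cytosol. They enter through the TOM complex of the outer membrane, where TOMM20, TOMM22 and TOMM70 act as receptors and TOMM40 forms the channel. Carriers are then escorted by the small TIMM proteins of the intermembrane space to the TIM22 translocase, while proteins with a cleavable presequence pass through the TIM23 translocase and its motor.

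Library totals ranged from 9147018 to 11194705 counts. MYC and JUN, whose mRNAs are known to be short-lived, fell with slopes of -1.12 and -0.89 log2 units per hour. Of 8 Ewing sarcoma markers, 7 were detected, with a mean of 43.1 counts for NKX2-2 to 17762 counts for CCND1. CD99 had no count. It is among the 17 pseudoautosomal protein-coding genes in the table, none of which had a count, so its 0 cannot be read as absence. Markers of endothelial, epithelial and blood cells (PECAM1, CDH5, VWF, EPCAM, CDH1, PTPRC, CD3E and CD14) had means of at most 3.58 counts. As these are bulk libraries of poly(A) RNA, fewer cells, less RNA per cell and loss of the poly(A) tail cannot be told apart.

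The change of each transcript was measured as a slope, the change in log2 counts per hour, from edgeR's quasi-likelihood fit with time as a number and TMM scaling. Adjusted p is that test's p after Benjamini-Hochberg adjustment over all 12032 tested genes, with a threshold of 0.05. No spike-in was used, so a positive slope means that a transcript became a larger share of the remaining poly(A) RNA, not that more of it was made. In this sense 12 members fell and 22 rose, and 25 did not pass the test. With the replicate number as a block, 14 fell and 26 rose (34.8% and 36.2% of all tested genes). Without it, in all tested genes 32.1% fell and 30.7% rose, against 20.3% and 37.3% of the tested members. The median slope was 0.042 over the tested members and 0.0093 over all tested genes.

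**Figure D1:**
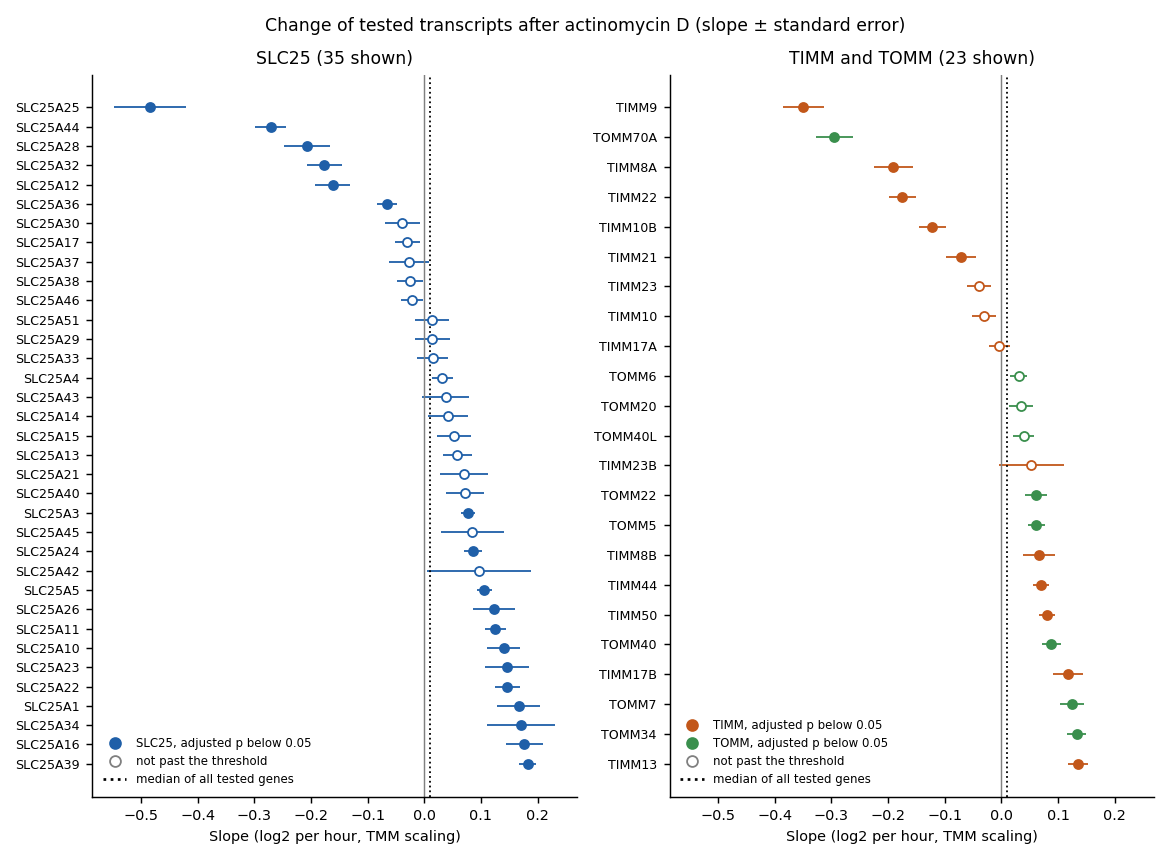
Slope of the tested members, 1 SLC25 member left out, in log2 units per hour with TMM scaling (point) and its standard error (bar), SLC25 carriers on the left, TIMM and TOMM genes on the right; filled points have an adjusted p below 0.05. SLC25A25 at -0.48, TIMM9 at -0.35 and TOMM70A at -0.29 lie farthest to the left, and SLC25A39 at 0.18 farthest to the right; the 22 filled points right of 0 include none that rose with GAPDH plus ACTB scaling.

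Whether a member rose depended on the scaling, and the 12 falls passed with TMM, library totals and GAPDH plus ACTB. The last 2 scalings both shift slopes down, which steepens a fall and weakens a rise. They therefore cannot show whether a fall depends on the scaling. GAPDH and ACTB, often used as references, themselves had slopes of 0.15 and 0.12 with TMM scaling. Scaling each library to these genes shifted the median slope of all genes by -0.14, and scaling to library totals shifted it by -0.039. With GAPDH plus ACTB, 39 of 59 members fell and 0 rose past the threshold (0 also at an unadjusted p below 0.05), against 64.2% and 0.931% of all tested genes. With library totals 20 fell and 16 rose, against 39.1% and 18.7%. The 12 members that fell with TMM were among those 39, and 7 of the 22 that rose with TMM still had slopes above 0, none past the threshold. Another 7 that rose with TMM fell past the threshold with GAPDH plus ACTB (SLC25A3, TIMM8B, TIMM44, TIMM50, TOMM5, TOMM22 and TOMM40). Half-lives depend on the scaling too: those of the 12 falling members ran from 2.07 to 15.1 h with TMM and from 1.62 to 4.92 h with GAPDH plus ACTB. The words fell and rose below refer to TMM scaling, and a rise is a statement relative to the other transcripts. Counts per role group below stand beside 32.1% of all tested genes falling and 30.7% rising. The groups are small, and no group was tested against these shares.

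**Figure D2:**
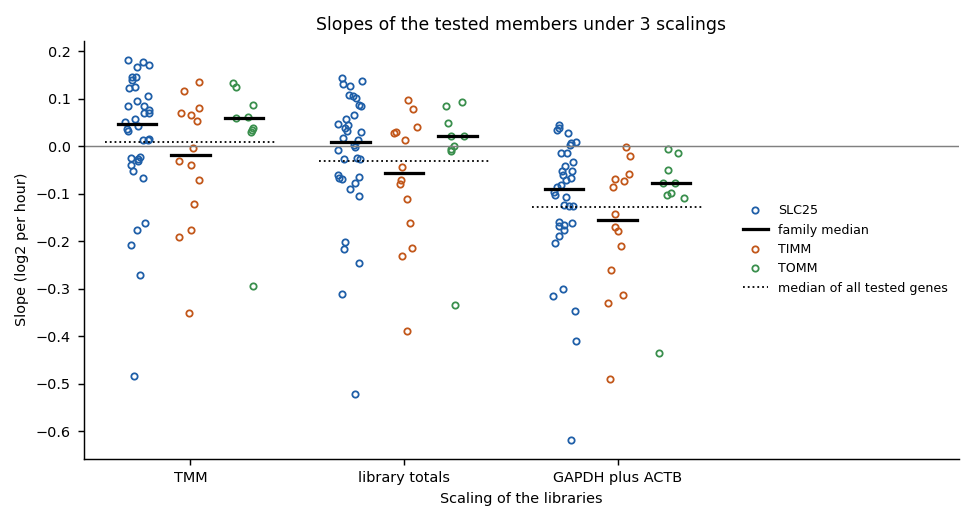
Slopes of the 59 tested members (points) under 3 scalings of the libraries, in log2 units per hour, with family medians (bars) and the median of all tested genes (dotted lines). The medians of SLC25 and of TOMM are above 0 with TMM and with library totals and below 0 with GAPDH plus ACTB, the TIMM median is below 0 under all 3, and the steepest falls stay below 0 throughout.

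The carriers of adenine nucleotides and phosphate held both the steepest fall and the most abundant carrier transcripts. Of the 6 tested members of this group, 1 fell and 4 rose. SLC25A25, a calcium-regulated ATP-Mg/phosphate carrier, fell furthest of all 59 tested members. Its level at 0 h was 33.2, 29.0 and 25.8 CPM (counts per 1000000 of the TMM-scaled library size) in replicates 1 to 3, and at 1 h it was 22.5, 21.7 and 20.2 CPM. It was 9.53, 7.69 and 9.86 CPM at 2 h and 9.70, 8.22 and 7.95 CPM at 4 h. The 0 h and 4 h libraries did not overlap, and almost all of the fall lay before 2 h. The slope was -0.48 (standard error, SE, 0.063, adjusted p = 4.9e-06), and the 4 h mean was 29.4% of the 0 h mean. The departure from a straight line in time had an adjusted p of 0.00522, a call lost without replicate 1 (adjusted p = 0.183) and without replicate 2 (adjusted p = 0.324), so the half-life of 2.07 h that the slope gives (1.62 h with GAPDH plus ACTB) averages a fast early and a flat late phase. The gene (GRCh38 chr9:128068201-128109245, plus strand) overlaps at its 3′ end its antisense gene SLC25A25-AS1 (chr9:128108581-128118693, minus strand), which rose with a slope of 0.27 (adjusted p = 0.00206) from a mean of 2.97 ± 1.25 CPM (SD, n = 3) at 0 h to 6.99 ± 0.93 CPM at 4 h. Whether reads were counted by strand was not given in the sources used here, so the 2 genes' counts may be mixed in the shared stretch.

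Its closest relatives did not fall with TMM. SLC25A23 and SLC25A24, further calcium-regulated ATP-Mg/phosphate carriers, had slopes of 0.15 (adjusted p = 0.00372) and 0.086 (adjusted p = 0.000118). The call of SLC25A23 was lost without replicate 1 (slope 0.12, adjusted p = 0.0639). SLC25A5, the ADP/ATP carrier that predominates in dividing cells, was at 359, 382 and 392 CPM at 0 h and at 492, 499 and 498 CPM at 4 h. Every 4 h library was above every 0 h library, with a slope of 0.11 (SE 0.013, adjusted p = 3.61e-06). SLC25A4, the ADP/ATP carrier of heart and skeletal muscle, was at 37.7 ± 1.2 CPM at 0 h and had a slope of 0.032 (adjusted p = 0.144). SLC25A3, the phosphate carrier, went from 663, 693 and 643 CPM at 0 h to 842, 831 and 781 CPM at 4 h. Its slope was 0.077 (SE 0.013, adjusted p = 5.78e-05). SLC25A5 has processed pseudogenes, and how reads that match several loci were counted was not given, so its level is uncertain to that extent. With GAPDH plus ACTB the slopes of SLC25A5, SLC25A3 and SLC25A24 were -0.032 (adjusted p = 0.223), -0.061 (adjusted p = 0.00196) and -0.052 (adjusted p = 0.0742), and SLC25A4 fell with -0.11 (adjusted p = 0.000328).

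Among carriers of di- and tricarboxylates, 3 of 4 rose and none fell past the threshold. SLC25A1, the citrate carrier, was at 48.4, 42.9 and 61.0 CPM at 0 h and at 75.9, 71.0 and 96.7 CPM at 4 h. Replicate 3 was highest at each time, and the 4 h libraries lay above the 0 h libraries. Its slope was 0.17 (SE 0.037, adjusted p = 0.000947). SLC25A10, the dicarboxylate carrier, and SLC25A11, the oxoglutarate carrier that serves the malate-aspartate shuttle, had slopes of 0.14 (adjusted p = 0.000518) and 0.13 (adjusted p = 2.76e-05). SLC25A21, the oxodicarboxylate carrier, had a slope of 0.070 (adjusted p = 0.165). With GAPDH plus ACTB the slope of SLC25A11 was -0.013, and those of SLC25A1 and SLC25A10 were 0.028 and 0.0029.

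Among carriers of amino acids and carnitine, 2 of 7 fell and 1 rose. SLC25A44, a carrier of branched-chain amino acids, was at 46.6, 41.6 and 42.4 CPM at 0 h, 34.3, 32.6 and 34.2 CPM at 2 h, and 23.1, 21.8 and 18.2 CPM at 4 h. No 4 h library reached the lowest 0 h library. The slope was -0.27 (SE 0.027, adjusted p = 2.67e-07), a half-life of 3.69 h with TMM and 2.44 h with GAPDH plus ACTB. SLC25A12, an aspartate/glutamate carrier of the malate-aspartate shuttle known from brain and muscle, went from 22.0, 20.8 and 24.9 CPM at 0 h to 15.1, 14.6 and 13.3 CPM at 4 h (slope -0.16, SE 0.031, adjusted p = 0.000223). SLC25A13, the aspartate/glutamate carrier known from liver, had a slope of 0.058 (adjusted p = 0.0557), which passed with the replicate number as a block (adjusted p = 0.000881). SLC25A22, a glutamate carrier, rose with a slope of 0.15 (SE 0.022, adjusted p = 2.76e-05). The ornithine carrier SLC25A15 had a slope of 0.052 (adjusted p = 0.134), or 0.080 without replicate 2 (adjusted p = 0.0248). SLC25A29, a carrier of basic amino acids, and SLC25A38, a glycine carrier needed for haem synthesis, had slopes of 0.014 and -0.025 and did not pass.

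Carriers of cofactors and other nucleotides were the largest group, with 2 of 11 falling and 3 rising. SLC25A39, known for the import of glutathione, rose most of all members by slope. It was at 55.4, 53.4 and 52.5 CPM at 0 h, 62.6, 64.0 and 66.3 CPM at 1 h, 75.3, 66.0 and 69.3 CPM at 2 h, and 89.3, 92.7 and 90.0 CPM at 4 h. All 4 h libraries were above all earlier ones. The slope was 0.18 (SE 0.015, adjusted p = 4.39e-08), and with GAPDH plus ACTB it was 0.045 (adjusted p = 0.0813). Its close relative SLC25A40 had a slope of 0.071 (adjusted p = 0.0746, or 0.00499 with the replicate block). SLC25A16, linked to coenzyme A, went from 6.78, 7.13 and 7.72 CPM at 0 h to 10.7, 12.2 and 12.1 CPM at 4 h (slope 0.18, SE 0.033, adjusted p = 0.000174). SLC25A32, which carries folate and FAD, went from 21.9, 20.7 and 22.1 CPM at 0 h to 15, 13.3 and 13.4 CPM at 4 h. Most of that fall lay between 1 and 2 h, and the slope was -0.18 (SE 0.031, adjusted p = 0.000123). SLC25A36, a pyrimidine nucleotide carrier, fell by little, with a slope of -0.066 and a call lost without replicate 2 (slope -0.055, adjusted p = 0.0588). SLC25A26, which imports S-adenosylmethionine, rose with a slope of 0.12 (adjusted p = 0.00788), lost without replicate 2 (slope 0.12, adjusted p = 0.0638). SLC25A17, SLC25A33, SLC25A42 and SLC25A51 of the same group did not pass, with slopes from -0.030 to 0.097.

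The mitoferrins, SLC25A28 and SLC25A37, import iron for haem and iron-sulphur clusters. SLC25A28, the widely expressed mitoferrin-2, was at 15.3, 16.4 and 17.5 CPM at 0 h and at 11.2, 10.5 and 6.94 CPM at 4 h. Its slope was -0.21 (SE 0.041, adjusted p = 0.000307), and replicate 3 was lowest at 4 h. The slopes of the single replicates were -0.12, -0.17 and -0.35. SLC25A37, the mitoferrin-1 of red cell precursors, had a slope of -0.027 (adjusted p = 0.515), with 32.2, 30.3 and 25.9 CPM at 0 h and 30.2, 29.4 and 27.5 CPM at 4 h. In each replicate it was higher than at these times at 1 h (37.0, 31.2 and 30.9 CPM) and lower at 2 h (27.6, 25 and 21.7 CPM). The step from 0 to 1 h did not pass (adjusted p = 0.575), and the step from 1 to 2 h did (adjusted p = 0.0198). That call was lost without replicate 1 (adjusted p = 0.0743) and without replicate 2 (adjusted p = 0.167). The step from 2 to 4 h had an adjusted p of 0.143, or 0.0122 with the replicate block. For the departure from a straight line it was 0.169, or 0.000703 with the block.

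Of the 6 other tested carriers, SLC25A34 rose with a slope of 0.17 (adjusted p = 0.0201) from a mean of 30.5 counts per library. That call was lost without replicate 2 (slope 0.15, adjusted p = 0.115) and without replicate 3 (slope 0.13, adjusted p = 0.12). SLC25A14 and SLC25A30, relatives of the uncoupling proteins, SLC25A43, SLC25A45 and SLC25A46, an outer membrane relative of the carriers, had slopes from -0.039 to 0.085 and did not pass.

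Of the small TIMM chaperones of the intermembrane space, 3 of 6 fell and 2 rose with TMM, whereas 5 of 6 fell and 0 rose with GAPDH plus ACTB. Of all tested genes, 32.1% fell and 30.7% rose with TMM, and 64.2% fell and 0.931% rose with GAPDH plus ACTB. TIMM9, which forms a ring-shaped chaperone with TIMM10, was at 29.7, 30.7 and 29.8 CPM at 0 h and at 30.2, 28.7 and 28.7 CPM at 1 h. It was at 24.7, 22.6 and 20.9 CPM at 2 h and at 12.8, 12.4 and 9.85 CPM at 4 h. The level was flat over the first hour, and the largest part of the fall came after 2 h. The slope was -0.35 (SE 0.036, adjusted p = 4.06e-07), a half-life of 2.86 h with TMM and 2.04 h with GAPDH plus ACTB, and the departure from a straight line had an adjusted p of 0.0988, or 0.00247 with the replicate block. TIMM10 was at 37.6, 40.2 and 36.9 CPM at 0 h and at 36.6, 36.9 and 33.7 CPM at 4 h, so its groups overlapped (slope -0.031, adjusted p = 0.205). TIMM8A, the gene altered in a deafness-dystonia syndrome, went from 16.2, 18.4 and 16.7 CPM to 11.7, 10.3 and 8.62 CPM (slope -0.19, SE 0.035, adjusted p = 0.000147). TIMM13, the partner of TIMM8A, went from 106, 92.8 and 88.4 CPM to 133, 140 and 142 CPM (slope 0.14, SE 0.017, adjusted p = 4.35e-06). The 4 h libraries of TIMM8A lay below those of 0 h, and those of TIMM13 above. TIMM8B, the relative of TIMM8A, had a slope of 0.067 near the threshold (adjusted p = 0.0463). Its 0 h and 4 h libraries overlapped, and the call was lost without replicate 1 (slope 0.056, adjusted p = 0.187) and without replicate 2 (slope 0.064, adjusted p = 0.143). TIMM10B, which sits on the TIM22 complex, fell with a slope of -0.12 (SE 0.025, adjusted p = 0.000394).

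**Figure D3:**
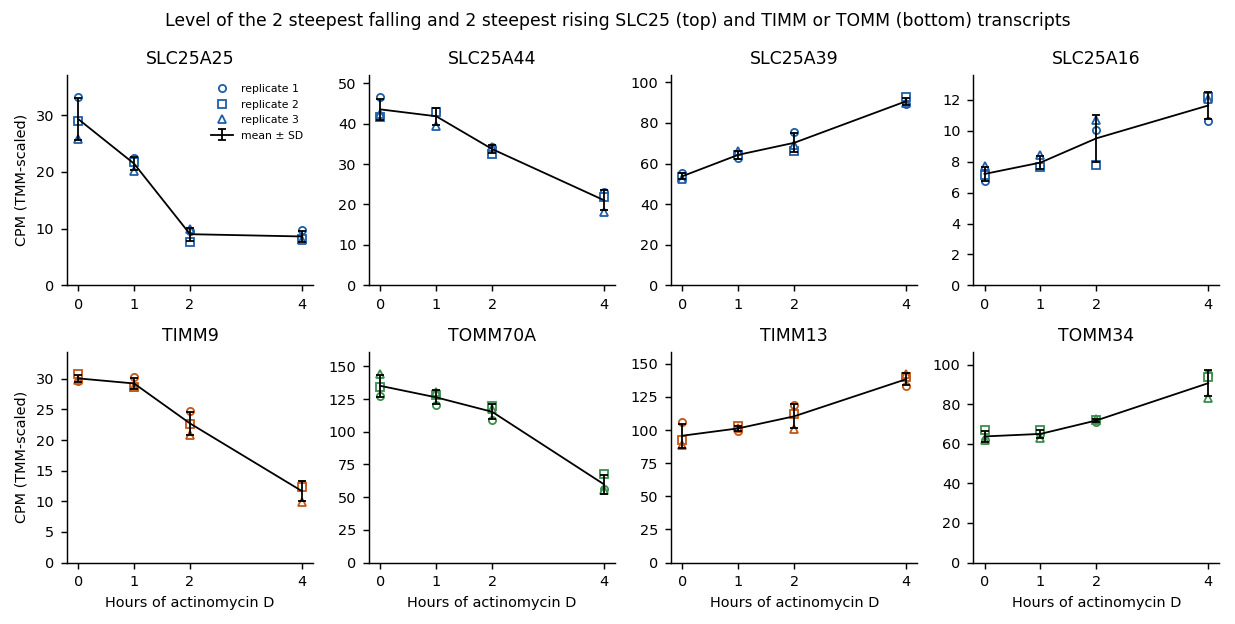
Level in CPM with TMM scaling (axis from 0) against hours of actinomycin D for the 2 steepest falling and 2 steepest rising members of SLC25 (top) and of TIMM and TOMM (bottom); symbols are replicates and the line is the mean ± SD (n = 3). SLC25A25 is flat from 2 to 4 h after its early fall, while TIMM9 and TOMM70A fall mainly from 2 to 4 h, and the rises of SLC25A39, SLC25A16, TIMM13 and TOMM34 are not past the threshold with GAPDH plus ACTB.

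TIMM22, the channel of the translocase that inserts carriers, went from 34.3, 38.4 and 31.7 CPM at 0 h to 21.7, 23.1 and 21.0 CPM at 4 h. The slope was -0.18 (SE 0.024, adjusted p = 7.68e-06), a half-life of 5.71 h with TMM and 3.20 h with GAPDH plus ACTB. In the TIM23 translocase and its motor, 1 of 7 members fell and 3 rose with TMM, and 5 fell and 0 rose with GAPDH plus ACTB. The shares over all tested genes were 32.1% and 30.7% with TMM, and 64.2% and 0.931% with GAPDH plus ACTB. TIMM50, the presequence receptor of the complex, went from 103, 103 and 98.3 CPM at 0 h to 133, 125 and 122 CPM at 4 h (slope 0.080, SE 0.015, adjusted p = 0.000148). TIMM44, which holds the motor to the channel, and TIMM17B, a channel subunit, rose with slopes of 0.069 (adjusted p = 0.000413) and 0.12 (adjusted p = 0.000839). TIMM17A, the alternative to TIMM17B and the more abundant per length, was at 129, 140 and 123 CPM at 0 h and at 126, 142 and 115 CPM at 4 h. These groups overlapped fully (slope -0.0036, adjusted p = 0.876). TIMM23, the central subunit, had a slope of -0.040 (adjusted p = 0.104, or 0.0457 with the replicate block), and its near-identical copy TIMM23B, at a mean of 34 counts, had 0.053 (adjusted p = 0.442). How reads were split between those copies was not given. TIMM21, which links the TIM23 and TOM complexes, fell with a slope of -0.072 (adjusted p = 0.0286), lost without replicate 1 (slope -0.068, adjusted p = 0.121) and without replicate 3 (slope -0.060, adjusted p = 0.15).

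Of the 9 tested TOMM genes, 1 fell and 5 rose with TMM, against 32.1% and 30.7% of all tested genes. With GAPDH plus ACTB 7 fell and 0 rose, where 64.2% and 0.931% of all tested genes did. The one that fell with TMM was TOMM70A (now TOMM70), the receptor through which carriers and other proteins without a presequence enter. It was at 128, 134 and 144 CPM at 0 h, 120, 128 and 130 CPM at 1 h, 109, 120 and 117 CPM at 2 h, and 56.1, 68.1 and 55.3 CPM at 4 h. The 4 h libraries stood far below all others, and the change from 2 to 4 h was -0.94 on the log2 scale (adjusted p = 3.53e-06). The slope was -0.29 (SE 0.033, adjusted p = 1.01e-06), and the departure from a straight line had an adjusted p of 0.0295. That call was lost without replicate 1, 2 or 3 (adjusted p = 0.302, 0.271 and 0.101) and with GAPDH plus ACTB (adjusted p = 0.135). The other receptors did not fall with TMM, though their slopes were -0.10 and -0.078 with GAPDH plus ACTB. TOMM20, a presequence receptor, had a slope of 0.035 (adjusted p = 0.151, or 0.0104 with the replicate block). TOMM22, the central receptor, rose with a slope of 0.061 (adjusted p = 0.0125), lost without replicate 1 (slope 0.043, adjusted p = 0.139). TOMM40, the channel, went from 195, 201 and 180 CPM at 0 h to 259, 251 and 235 CPM at 4 h (slope 0.088, SE 0.017, adjusted p = 0.000212). Its less abundant relative TOMM40L had a slope of 0.040 (adjusted p = 0.0751).

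The small subunits TOMM5, TOMM6 and TOMM7 steady the channel. TOMM7 dipped before it rose, from 70.4, 74.8 and 70.6 CPM at 0 h to 62.2, 66.9 and 68.7 CPM at 1 h, without passing the test for that step (adjusted p = 0.412), and then to 97.7, 95.6 and 96.9 CPM at 4 h. Its slope was 0.12 (SE 0.021, adjusted p = 6.86e-05). TOMM5 rose with a slope of 0.062 (adjusted p = 0.00211). TOMM6 had a slope of 0.030 (adjusted p = 0.0928, or 0.0491 with the replicate block). TOMM34, a cytosolic cochaperone of precursor proteins, went from 62.1, 67.1 and 62.1 CPM at 0 h to 95.1, 93.8 and 83.0 CPM at 4 h (slope 0.13, SE 0.017, adjusted p = 3.26e-06).

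Per length of the canonical transcript, the most abundant members at 0 h were SLC25A5 with 289 ± 13 CPM per kilobase (SD, n = 3), TOMM5 with 189 ± 9.3, TOMM7 with 166 ± 5.6, TOMM6 with 156 ± 12 and SLC25A3 with 111 ± 4.2. TOMM7 and TOMM6 lie within their spread of each other, as do SLC25A3 and TOMM40 with 109 ± 6.0. The 4 members that fell most steeply were not among these. They had 33.0 ± 2.0 CPM per kilobase for TOMM70A, 24 ± 0.46 for TIMM9, 12.6 ± 0.76 for SLC25A44 and 8.54 ± 1.1 for SLC25A25. Members that rose were found both among the most abundant and at low levels, such as SLC25A39 with 34.0 ± 0.94 and SLC25A16 with 1.10 ± 0.072. These levels therefore do not set the steep falls apart. SLC25A4, at 8.54 ± 0.29 CPM per kilobase, was level with SLC25A25 at 0 h and far below SLC25A5.

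ATTTA is the core of the AU-rich elements by which some mRNAs are known to be marked for rapid decay. The first ATTTA with 10 bases on either side in the 3′ UTR is shown for the members with the 4 steepest falls, and for SLC25A16, which rose and has 16 of them. Capitals mark the ATTTA, and the letters are DNA of the transcript strand from GENCODE 44 canonical transcripts on GRCh38.
SLC25A25: cttggaacctATTTAttttgtattt
TIMM9: caaaattgctATTTAccaggaataa
TOMM70A: tgtaaaatagATTTAtattcagtta
SLC25A44: tgcccccactATTTAaaattctctt
SLC25A16: gaatggggatATTTAccctgtcaca
SLC25A25 has 4 such matches in its 3′ UTR and the site shown starts at base 1069 of the UTR. TIMM9 (chr14:58408495-58427531, minus strand) has 1 match at base 162, TOMM70A (chr3:100363431-100401089, minus strand) has 6 with the first at base 429, and SLC25A44 (chr1:156193932-156212796, plus strand) has 2 with the first at base 199. In SLC25A16 (chr10:68477998-68527523, minus strand) the site shown starts at base 94.

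A match to these letters was common. It was found on the transcript strand in the 3′ UTR of 45 of the 59 tested members (76.3%) and in 74.8% of all tested genes with a 3′ UTR. With at least 1 match, 11 members fell and 14 rose, with a median slope of 0.035. Without a match, 1 of 14 fell (SLC25A28) and 8 rose, among them SLC25A39, with a median slope of 0.087. Over all tested genes 37.3% fell and 25.2% rose with a match (median -0.012), and 18.8% fell and 49.7% rose without one (median 0.078). Across the 59 members, Spearman's rho of the slope was -0.31 with matches per kilobase, 0.42 with the GC content of the transcript and -0.085 with its length, against -0.23, 0.27 and -0.24 over all tested genes. These are correlations across genes that share the 12 libraries, and genes are not independent replicates.

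Related pairs were compared by the log2 ratio of their counts within each library, a measure that does not depend on scaling. Of 17 pairs listed, paralogs or partners in one complex, 15 could be tested and 11 changed past the threshold (exact permutation test over all 369600 arrangements of the time labels, two-sided, adjusted over the 15 pairs). The pairs were listed with earlier results of these data known. With TMM, 32.1% of all tested genes fell and 30.7% rose, so many unrelated pairs may change too. How often they do was not tested. The ratio of TIMM9 to TIMM10 changed most, from a mean log2 ratio of -0.35 ± 0.04 (SD, n = 3) at 0 h to -1.62 ± 0.13 at 4 h (slope -0.33 per hour, exact permutation adjusted p = 0.000162). The ratio of TIMM8A to TIMM8B went from -1.18 ± 0.11 to -2.10 ± 0.08 (slope -0.26, exact permutation adjusted p = 0.000501). SLC25A12 fell against SLC25A13, from -1.60 ± 0.24 to -2.47 ± 0.14 (slope -0.22, exact permutation adjusted p = 0.00106). In all 3 pairs the first gene lost share to the second in each replicate.

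SLC25A28 also lost share against SLC25A37 (slope -0.19, exact permutation adjusted p = 0.000822), with slopes of -0.072, -0.15 and -0.34 in replicates 1 to 3. In the TIM23 complex, TIMM23 lost share against TIMM50 (slope -0.12, exact permutation adjusted p = 0.000203) and TIMM17A against TIMM17B (slope -0.12, exact permutation adjusted p = 0.0132). The call for TIMM17A and TIMM17B was lost without replicate 1 (slope -0.14, exact permutation adjusted p = 0.099). SLC25A4 lost share against SLC25A5 (slope -0.075, exact permutation adjusted p = 0.0102), lost without replicate 2 (slope -0.062, exact permutation adjusted p = 0.101).

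The remaining 4 changed pairs had ratio slopes of 0.049 to 0.11 and were SLC25A39 to SLC25A40, TIMM10 to TIMM10B, SLC25A33 to SLC25A36 and TOMM40 to TOMM40L, each with a call lost in at least 1 set of 2 replicates. SLC25A10 to SLC25A11 (slope 0.014), TOMM20 to TOMM22 (-0.028) and SLC25A16 to SLC25A42 (0.062) did not pass. SLC25A23 to SLC25A24 (0.060) passed only when time labels were permuted within replicate numbers (adjusted p = 0.235 without and 0.0257 with the replicate block, exact permutation test).

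**Figure D4:**
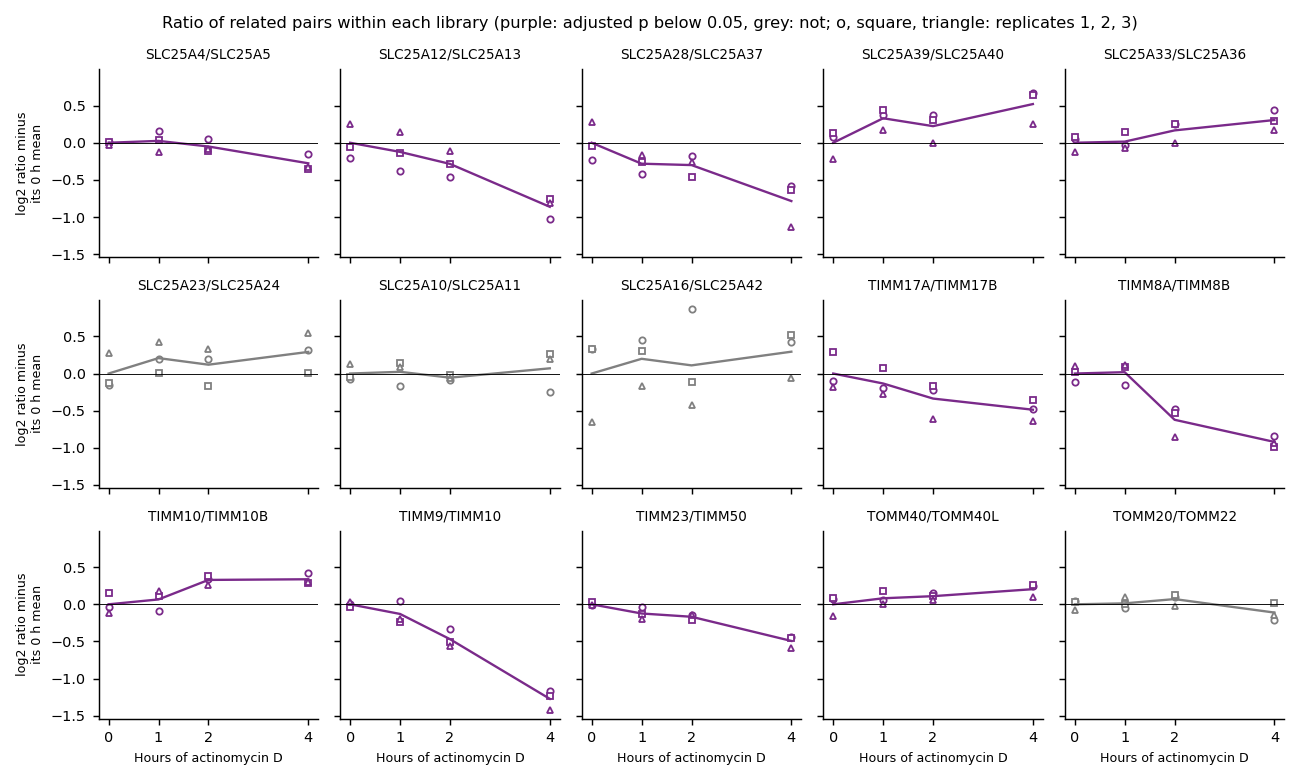
Log2 ratio of 15 related pairs within each library, minus its mean at 0 h, against hours of actinomycin D; symbols are replicates and lines are means (n = 3), purple where the adjusted p is below 0.05. TIMM9/TIMM10 falls furthest, with a slope of -0.33 per hour, and the 4 grey pairs did not pass the test.

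The typical slopes of SLC25 carriers and import genes were compared by their medians. The median slope was 0.047 for SLC25 and 0.040 for TIMM and TOMM together with TMM, and -0.091 and -0.099 with GAPDH plus ACTB. Their difference (SLC25 minus TIMM and TOMM) was 0.0076, and in replicates 1, 2 and 3 it was -0.0031, 0.0061 and 0.014 (mean 0.0057 ± 0.0086), so it was no larger than the spread between replicates. Its sign was not stable: it was -0.0056 without replicate 1, -0.0045 without replicate 3, and -0.023 when only genes averaging 100 counts or more were kept, where the SLC25 median was 0.0080. With TMM, 6 of 36 SLC25 genes fell and 12 rose (16.7% and 33.3%). Of 23 TIMM and TOMM genes, 6 fell and 10 rose (26.1% and 43.5%). Over all tested genes 32.1% fell and 30.7% rose. With GAPDH plus ACTB 21 and 18 fell and none rose, against 64.2% and 0.931% of all tested genes. Between TIMM and TOMM the medians were -0.017 and 0.061 with TMM, and -0.16 and -0.078 with GAPDH plus ACTB. The medians of the single replicates were -0.0059, -0.012 and -0.033 for TIMM and 0.079, 0.044 and 0.041 for TOMM, so TIMM was lower in each replicate, a difference given without a test. Among 76 tested mitochondrial ribosomal protein genes 22 fell and 27 rose with TMM (28.9% and 35.5%, median 0.0072). Among 151 tested solute carriers outside SLC25, 22 fell and 47 rose (14.6% and 31.1%, median 0.031). The same 32.1% and 30.7% of all tested genes stand beside both groups. Under GAPDH plus ACTB 0 of either group rose, where 0.931% of all tested genes rose.

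Comparing 4 h with 0 h alone gave much the same counts. Of the tested members 12 were lower and 21 higher, against 31.6% and 28.7% of all tested genes. The 0 h and 4 h libraries did not overlap for 13 members that were lower and 24 that were higher at 4 h, against 33% and 30.4% of all tested genes. With GAPDH plus ACTB, 39 were lower and 0 higher (1 at an unadjusted p below 0.05), against 63.3% and 0.923% of all tested genes.

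The steps between time points showed when members changed. From 0 to 1 h, 0 members were lower and 1 was higher (SLC25A39, 0.26 on the log2 scale, adjusted p = 0.0435), against 2.24% and 0.349% of all tested genes. The SLC25A39 call was lost without any 1 of the replicates (adjusted p from 0.186 to 0.373) and with library totals (adjusted p = 0.0523). At an unadjusted p below 0.05 from edgeR, 2 members were lower. With the replicate block, 2 were lower (SLC25A25 and TIMM8B) and 5 higher (SLC25A1, SLC25A23, SLC25A29, SLC25A39 and TOMM40), against 10.5% and 6.18%. From 1 to 2 h, 6 were lower (SLC25A25, SLC25A32, SLC25A37, SLC25A44, TIMM9 and TIMM10B) and 3 higher (SLC25A5, TIMM8B and TOMM7), against 12.5% and 3.76%. Of these, only the fall of SLC25A25 passed without each of replicates 1, 2 and 3 in turn, and leaving 1 out gave 1 to 4 lower and 0 to 2 higher. From 2 to 4 h, 6 were lower (SLC25A12, SLC25A44, TIMM9, TIMM22, TIMM23 and TOMM70A) and 7 higher (SLC25A3, SLC25A5, SLC25A22, SLC25A39, TIMM13, TOMM7 and TOMM34), against 18.3% and 12%. Those of SLC25A12, SLC25A39, SLC25A44, TIMM9, TOMM34 and TOMM70A passed without each replicate in turn. Between 1 and 2 h the change of SLC25A25 was -1.25 on the log2 scale (adjusted p = 2.17e-05), and between 2 and 4 h it was -0.07 (adjusted p = 0.757). TIMM9 showed the opposite order, with -0.36 (adjusted p = 0.0191) and then -0.96 (adjusted p = 2.15e-05). With the replicate block the counts were 10 lower and 13 higher from 1 to 2 h (20.7% and 17% of all tested genes) and 9 lower and 18 higher from 2 to 4 h (25.3% and 25.3%). A departure from a straight line was called for 2 members (SLC25A25 and TOMM70A), against 2.7% of all tested genes, for 0 to 1 with 1 replicate left out, and for 9 with the replicate block, against 17.2%.

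Other genes of the import pathway moved in both directions, as did the tested genes at large. Of 21 tested genes for assembly, processing and the import motor, 4 fell and 8 rose with TMM, and 14 fell and 0 rose with GAPDH plus ACTB. Of all tested genes, 32.1% fell and 30.7% rose with TMM, and 64.2% fell and 0.931% rose with GAPDH plus ACTB. GRPEL2, a nucleotide exchange factor of the motor, fell with a slope of -0.48 (adjusted p = 1.23e-07), while its relative GRPEL1 had -0.031 (adjusted p = 0.328). CHCHD4, the oxidoreductase that folds small TIMM proteins in the intermembrane space, fell with a slope of -0.13 (adjusted p = 0.000344), and GFER, which reoxidises it, with -0.068 (adjusted p = 0.0196). HSPA9, the chaperone of the import motor, rose with a slope of 0.059 (adjusted p = 0.00184), and ROMO1, a small inner membrane protein, with 0.18 (adjusted p = 7.35e-05). All 8 tested channels and carriers outside the naming rule rose with TMM (UCP2, MTCH1, MTCH2, VDAC1, VDAC2, VDAC3, MPC1 and MPC2, slopes 0.055 to 0.15), 5 rose with library totals, and 3 fell and 0 rose with GAPDH plus ACTB. Over all tested genes 30.7% rose with TMM and 18.7% with library totals.

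The 13 members below the count filter were SLC25 genes and TOMM20L. SLC25A2, SLC25A6, SLC25A31, SLC25A47 and SLC25A48 had no count among 121373427, which allows up to 0.0247 CPM over the 12 libraries at a floor of 3 counts, for counting error only. For SLC25A6, an ADP/ATP carrier gene of the pseudoautosomal region, the 0 cannot be read as absence, since all 17 pseudoautosomal genes in the table had no count. The other 8 had totals of 1 to 60 counts over the 12 libraries: 60 for SLC25A35, 29 each for SLC25A27 and SLC25A53, 22 for SLC25A41, 5 for SLC25A18, 3 each for SLC25A52 and TOMM20L, and 1 for SLC25A20, the carnitine/acylcarnitine carrier. No change over time could be measured for these 13 at this depth.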

How the data were processed

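RNA-Seq of A673 cells (12 libraries; 0, 1, 2 and 4 h of actinomycin D, 3 replicates each) was analysed from raw counts per gene symbol, as deposited by the authors. Libraries were poly(A)-selected and stranded. The submitters' processing notes name FastQC, STAR and hg19 without versions or roles. The paper's general methods for this kit describe Prinseq, STAR, Salmon and tximport, and which of these made the counts was not given. Columns were matched to samples by title, with 0 unmatched.

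Counts were fitted with edgeR 4.0.16 (R 4.3.3; TMM; mean of at least 10 counts; glmQLFit and glmQLFTest; time as a number, or as 4 groups for single steps; no block). Half-lives, given for members that fell, are the hours per log2 unit of loss (limit 24 h). Deviations of samples from their time-point means correlated for the same replicate number (18 pairs, 0.30 to 0.61), above those for different numbers (36 pairs, -0.40 to 0.084). Such deviations sum to 0 within a time point, which pulls the values for different numbers down. The numbers, taken from the labels, thus pair the samples. Block results are given where they change the slope call of a named member or the call of a pair. For single steps and departures from a straight line they are given mainly as counts, so not every changed call is named. Replicates of a time point differed beyond sampling noise (chi-square per degree of freedom 3.21 to 8.67), and the common biological coefficient of variation was 0.0905. Ratios of pairs used counts plus 0.5 and exact permutation tests (numpy 2.4.6). In simulated data for the slope (11982 genes), 32 of 64 genes were recovered at a slope of 0.1, 62 of 65 at 0.25 and 69 of 69 at 0.5, and 7 of 170 calls were unchanged genes. For 4 h against 0 h these were 26, 61 and 69, with 8 of 164 calls. The simulation changed far fewer genes than changed in the data and held no replicate effect, so these shares do not carry over to the members.

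Members, lists and pairs were chosen with earlier results of these data known. Genes named are the called SLC25 genes (the 5 steepest each way), the called TIMM and TOMM genes (the 4 steepest each way), a fixed set of main carriers and translocase subunits, and other tested members within their role group. Transcript features and sequences are from GENCODE 44 canonical transcripts on GRCh38, found for all 59 tested members. The values of 1 member are not reported here, though it is counted in its groups. Names of antisense genes were added after values were seen. Alternatives were DESeq2 1.42.0 (size factors, Wald test), limma 3.58.1 on log2(CPM + 1), library totals, GAPDH plus ACTB scaling, other count filters, the replicate block, fewer time points and fewer replicates.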

Additional observations from a re-analysis of the deposited data

How the results depend on the processing

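Scaling sets a limit, since without a spike-in a rise is relative to the other transcripts. Genes with a slope of 0.1 were recovered in only part of the simulated cases. In the simulation 170 of 11982 genes were called, a far smaller share than in the data. Its recovery therefore does not give the power for the members. DESeq2's size factors and Wald test changed no call of a member's slope. limma lost TIMM8B and gained TOMM40L. TIMM8B was also lost with no count filter and with a mean of at least 100 counts, where TIMM23 was gained.

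With library totals, where 39.1% of all tested genes fell and 18.7% rose, SLC25 had 11 falls (median slope 0.0084), TIMM 8 falls and 3 rises, TOMM 3 rises, and TIMM and TOMM together a median of 0.00038. Members higher were 0 at 1 h against 0 h, 1 at 2 h against 1 h and 4 at 4 h against 2 h. The shares above are for the slope. Those of all tested genes for the steps with library totals are not given. The slopes of 7 members that had not passed turned negative: SLC25A29 (-0.026), SLC25A33 (-0.024), SLC25A4 (-0.0072), SLC25A43 (-0.0015), SLC25A51 (-0.026), TOMM20 (-0.0046) and TOMM6 (-0.0090).

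With GAPDH plus ACTB, falls and rises were 21 and 0 for SLC25, 11 and 0 for TIMM and 7 and 0 for TOMM, with medians of -0.091 for SLC25 and -0.099 for TIMM and TOMM. At 4 h against 0 h, 21 SLC25 genes and 18 TIMM and TOMM genes were lower and 0 higher, against 63.3% and 0.923% of all tested genes. By step, 1 was lower and 0 higher at 1 h, and 0 were higher at 2 h against 1 h. At 4 h against 2 h, 25 were lower and 0 higher. A departure from a straight line was called for 1. Shares of all tested genes are not given for these steps with this scaling, so these counts cannot be set against a background. The slopes of 31 members turned negative. These were, in SLC25, SLC25A11 (-0.013), SLC25A13 (-0.081), SLC25A14 (-0.096), SLC25A15 (-0.085), SLC25A21 (-0.071), SLC25A24 (-0.052), SLC25A26 (-0.013), SLC25A29 (-0.12), SLC25A3 (-0.061), SLC25A33 (-0.12), SLC25A4 (-0.11), SLC25A40 (-0.065), SLC25A42 (-0.041), SLC25A43 (-0.10), SLC25A45 (-0.051), SLC25A5 (-0.032) and SLC25A51 (-0.12). In TIMM they were TIMM13 (-0.00091), TIMM17B (-0.020), TIMM23B (-0.085), TIMM44 (-0.069), TIMM50 (-0.058) and TIMM8B (-0.072), and in TOMM they were TOMM20 (-0.10), TOMM22 (-0.078), TOMM34 (-0.0054), TOMM40 (-0.050), TOMM40L (-0.099), TOMM5 (-0.076), TOMM6 (-0.11) and TOMM7 (-0.013). These shifts follow from the change of reference itself.

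With the replicate block, 2 members were lower and 5 higher at 1 h against 0 h, 10 lower and 13 higher at 2 h against 1 h and 18 higher at 4 h against 2 h, 9 departed from a straight line, and the ratio of SLC25A23 to SLC25A24 (0.060) passed. The block added calls, among them those of SLC25A13, SLC25A40, TIMM23, TOMM20 and TOMM6, took none away and changed no other call of a named member's slope.

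With 0, 1 and 2 h alone, 7 SLC25 and 2 TOMM genes rose and 2 TIMM genes fell, with medians of 0.071 for SLC25 and 0.056 for TIMM and TOMM. Shares of all tested genes are not given for these time points. Whether the loss of calls is particular to the members therefore cannot be told. SLC25A43 (-0.066), SLC25A46 (0.0089), SLC25A51 (-0.021), TIMM10 (0.042), TIMM17A (0.00012) and TIMM23 (0.031) changed sign. With 1, 2 and 4 h the SLC25 median was 0.057, the difference between families 0.024, SLC25A29 (-0.065) and TIMM17A (0.0051) changed sign, SLC25A23, SLC25A34 and TIMM21 lost their calls and TIMM10 gained one. With a mean of at least 100 counts the SLC25 median was 0.0080 and the difference between families was -0.023. That filter leaves out 8 SLC25 members and TIMM23B.

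Leaving out 1 replicate at a time, the SLC25 median ranged from 0.026 to 0.058 and the difference between families from -0.0056 to 0.017. The count higher at 1 h against 0 h was 0 each time. At 2 h against 1 h, 1 to 4 members were lower and 0 to 2 higher. At 4 h against 2 h, 3 to 5 were higher, and 0 to 1 departed from a straight line. Shares of all tested genes are not given for these fits with fewer replicates. Slopes ranged from -0.0014 to 0.034 for SLC25A29, -0.0042 to 0.040 for SLC25A33 and -0.00080 to 0.024 for SLC25A51. Ratio slopes ranged from 0.10 to 0.12 for SLC25A39 to SLC25A40, 0.066 to 0.095 for SLC25A33 to SLC25A36, -0.14 to -0.11 for TIMM17A to TIMM17B, 0.070 to 0.11 for TIMM10 to TIMM10B, 0.043 to 0.054 for TOMM40 to TOMM40L, -0.085 to -0.062 for SLC25A4 to SLC25A5 and -0.011 to 0.040 for SLC25A10 to SLC25A11. Pairs that lost their call kept their direction, and fewer arrangements are possible with 2 replicates.

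Where a call changed and no construction of the alternative shows why, the cause was not tested.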
